A study of Mus musculus with 14 samples.

Results

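The protein part of the cytosolic ribosome was followed through RNA-seq of mouse blood progenitors and of the leukemia cells derived from them. The members were the protein-coding genes named by the systematic ribosomal protein (RP) symbols (Rpl or Rps, a number and at most a trailing a or x) plus Rpsa, Rplp0, Rplp1 and Rplp2, with at least 10 counts in at least 4 of the 14 libraries. Of 76 genes with such a symbol among the 52550 genes of the count table, 72 passed, of which 30 encode proteins of the small 40S subunit and 42 encode proteins of the large 60S subunit. The other 4 were listed at 0 counts in every library (Rpl13, Rpl35 and Rpl35a) or at 0 to 2 counts (Rpl24) and were not tested. Rpl35 and Rpl24 share 66.2% and 47.0% of their exonic bases with Wdr38 on the opposite strand and with Gm28037 on the same strand and all 4 genes are reported only as listed at or near 0.

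The study compared WT HSPCs (4 libraries), Mir139KO HSPCs (4 libraries) and MLL-AF9 cells (6 libraries). HSPCs were bone marrow cells of C57BL/6 mice aged 8 to 20 weeks that had been enriched for hematopoietic stem and progenitor cells and lysed at once. Mir139KO mice lack the microRNA gene Mir139. MLL-AF9 cells were WT HSPCs that had been cultured overnight with cytokines, transduced with the leukemia fusion gene MLL-AF9 in a retroviral vector carrying a neo (replicates 1 to 3) or a puro (replicates 4 to 6) resistance gene, selected, and replated repeatedly in MethoCult. None of the samples are cultured HSPCs without MLL-AF9, so the fusion gene, culture and selection cannot be told apart in any comparison with MLL-AF9 cells. The labels do not say whether the libraries of a group came from separate animals or transductions, so p-values measure only the spread between these libraries.

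Each ribosome holds a single copy of most RPs, and cells make these proteins in matched amounts together with ribosomal RNA. Most vertebrate RP mRNAs begin with a terminal oligopyrimidine (TOP) tract, a run of C and T residues at the transcription start through which mTOR signaling controls their translation as a set. Reduced dosage of single RP genes impairs blood formation in Diamond-Blackfan anemia and in myelodysplasia with loss of chromosome arm 5q.

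The sequence around the RefSeq transcription start is shown for 7 members. Of these, 4 have a long pyrimidine run at that start (Rps27, Rps10, Rps6 and Rps24) and 3 do not (Rplp0, Rpl22 and Rpl5). They were chosen to span the range from the strongest to the weakest difference between MLL-AF9 cells and WT HSPCs among the members described below. Each line holds 30 bases of RefSeq promoter sequence (GRCm38.p6), 5′ to 3′ on the gene's strand. The annotated transcription start is the 16th base, and capitals mark the longest unbroken run of C and T in the window. In Rplp0, Rpl22 and Rpl5 this run has 5, 4 and 4 bases and lies upstream of the start, so the capitals there do not mark a TOP tract.
Rplp0, chr5:115559452-115559481, plus strand: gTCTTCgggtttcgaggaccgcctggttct
Rps27, chr3:90213634-90213663, minus strand: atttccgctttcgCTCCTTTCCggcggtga
Rps10, chr17:27635230-27635259, minus strand: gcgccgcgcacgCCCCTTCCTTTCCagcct
Rps6, chr4:86857353-86857382, minus strand: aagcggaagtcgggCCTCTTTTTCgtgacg
Rps24, chr14:24490663-24490692, plus strand: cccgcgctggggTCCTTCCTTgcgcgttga
Rpl22, chr4:152325711-152325740, plus strand: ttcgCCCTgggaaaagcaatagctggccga
Rpl5, chr5:107900513-107900542, plus strand: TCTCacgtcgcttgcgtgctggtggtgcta

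RefSeq promoter windows were available for 52 of the 72 members. For genes with an RP symbol the RefSeq start nearest to the GENCODE M21 start was used, and for other genes the first listed. All genes with a window entered the shares, tested here or not, so members and all genes were not chosen alike. Within 15 bases either side of the start, 26 members (50%) had a run of at least 7 pyrimidines, against 18.5% of the windows of 27025 genes, and 19 (36.5%) had a run of at least 9, against 7.56%. The letters CGGAAG, the core of an ETS factor motif, stood on either strand of the 300 bases (250 before and 50 after the start) in 37 members (71.2%) and in 17.2% of all windows. The letters ATGGCGG, part of the YY1 motif, stood there in 8 members (15.4%) and in 4.19% of all windows. The annotated start of RefSeq and that of GENCODE M21 differed, by 3553 bases for Rps24 and by 1425 bases for Rps10. A missing run therefore says only that these letters are not in this window. The runs shown for Rps24 and Rps10 lie at the RefSeq start, and whether transcripts start there was not tested.

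The libraries held 35016668 to 45877994 counts. The HSPC libraries fell into 2 sets by the share of counts on a single non-coding gene, Gm26917, which took 17.0 to 21.9% in WT HSPC 1 and 2 and Mir139KO HSPC 2 and 3 (low-share libraries), 32.7 to 35.4% in WT HSPC 3 and 4 and Mir139KO HSPC 1 and 4 (high-share libraries) and 7.55 to 10.4% in MLL-AF9 cells. TMM scaling factors were lower where this share was higher, at 0.969 to 1.11, 0.615 to 0.660 and 1.18 to 1.39. Both sets hold libraries of both HSPC genotypes, and results are given within each set where they depend on it. MLL-AF9 4 and 6 were closer to each other than any other pair, with a mean chi-square of 10.0 per gene against 23.6 to 872 for the other pairs within a group, which is above sampling noise, and both were kept. The Mir139 gene was at 0 counts in all 14 libraries, so the deletion could not be checked.

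RP genes took a smaller share of the reads in MLL-AF9 cells than in either HSPC group. The 72 genes together accounted for 4.73, 5.09, 5.75 and 6.31% of the counts in the 4 WT HSPC libraries, for 5.90, 5.79, 5.87 and 5.85% in the 4 Mir139KO HSPC libraries and for 2.38 to 3.402% (median 3.17%) in the 6 MLL-AF9 libraries. All 6 MLL-AF9 libraries lay below all 8 HSPC libraries, and the HSPC genotypes overlapped. The group means (± SD) were 5.47 ± 0.701% for the 4 WT HSPC, 5.85 ± 0.0479% for the 4 Mir139KO HSPC and 3.09 ± 0.375% for the 6 MLL-AF9 libraries. The share was 1.77-fold higher in WT HSPCs and 1.89-fold higher in Mir139KO HSPCs than in MLL-AF9 cells, each with a 2-sided exact permutation p of 0.00952 (0.0190 after Benjamini-Hochberg adjustment over 4 comparisons), the smallest that this design allows. Mir139KO and WT HSPCs differed by 0.38 percentage points (exact permutation p = 0.314, adjusted 0.314). The puro cultures (3.33 ± 0.11%, n = 3) and the neo cultures (2.86 ± 0.423%, n = 3) differed by 0.46 points without overlap, at the smallest p that 3 against 3 allows (exact permutation p = 0.1, adjusted 0.133).

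**Figure D1:**
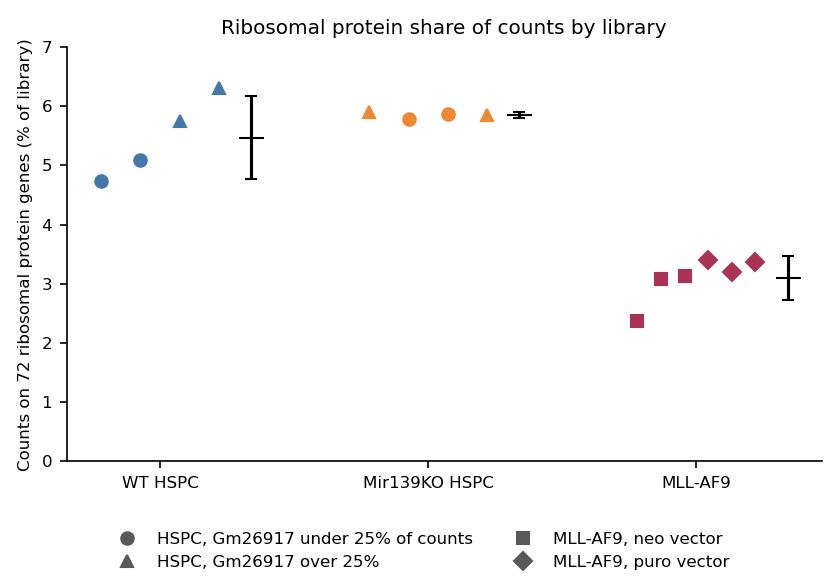
Share of each library's counts that fell on the 72 RP genes, in percent, for WT HSPCs, Mir139KO HSPCs and MLL-AF9 cells, with 1 point per library and the group mean ± SD as a bar. The MLL-AF9 libraries sit at 2.38 to 3.402%, below the HSPC libraries at 4.73 to 6.31%.

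In bulk RNA, fewer cells with a high RP level and less RP RNA per cell cannot be told apart. The share depends on what else was counted: with Gm26917 left out it was 7.57% in WT HSPCs, 8.16% in Mir139KO HSPCs and 3.41% in MLL-AF9 cells, and it then stood at 6.69 ± 0.887% in the 4 low-share and 9.04 ± 0.344% in the 4 high-share HSPC libraries.

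Within a library the members spanned a wide range of levels. Per coding kilobase and on the TMM scale (CPM, counts relative to library size after TMM scaling over the 14 libraries), the median member stood at 1757 in WT HSPCs, 1908 in Mir139KO HSPCs and 638 in MLL-AF9 cells. On this scale Rpl41, which encodes the smallest RP in 75 coding bases, was highest in all groups, at 17239, 18910 and 4590 CPM per kilobase. Rps29 was next at 5443, 5786 and 1680. The divisor leaves out untranslated bases, so members with a short coding sequence stand high, and this ranking is not one of counts. Rpl13a, a protein also known from the GAIT complex that silences translation, was among the low ones, at 128, 138 and 41.7. Of its exonic bases 29.4% lie on the same strand as another annotated gene, Gm45713, and whether reads shared with such genes or with pseudogene copies were counted is not given in the sources used here. The members have a median of 2 and up to 23 (Rps12) annotated pseudogenes named by the member's symbol and the ending -ps. Pseudogenes under other names were not counted, so these numbers are lower bounds, and the level of any member with copies is uncertain. The spread between libraries was widest in WT HSPCs, with a median coefficient of variation over the members of 40.8%, against 25.4% in Mir139KO HSPCs and 17.0% in MLL-AF9 cells.

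Nearly the whole set was lower in MLL-AF9 cells than in WT HSPCs. All 72 log2 fold changes were negative, 68 members fell and 0 rose (edgeR quasi-likelihood test, adjusted p under 0.05 over 17077 genes), where 29.4% of all genes tested were called lower and 32.8% higher. The drop covered 30 of 30 members of the 40S subunit (median log2 fold change -1.69) and 38 of 42 of the 60S subunit (median -1.499). The median over the 72 members was -1.56, a 2.94-fold lower level, while the median over all genes was 0.14. In 67 of the 72 members every MLL-AF9 library lay below every WT HSPC library, which was true of 24.4% of all genes. The 4 members that did not pass the test were Rpl4, Rpl5, Rpl17 and Rpl23.

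Among proteins of the 40S subunit, Rps6, whose phosphorylation by S6 kinases reports mTOR activity, stood at 487, 528, 852 and 938 TMM CPM in WT HSPC 1 to 4 and at 252 to 315 (median 291) in MLL-AF9 cells. The groups did not overlap, and WT HSPC 3 and 4, the high-share libraries, were the highest (log2 fold change -1.30, SE 0.25, edgeR adjusted p = 0.00084). Rpsa, also known as the laminin receptor, stood at 1689, 1717, 4825 and 4909 TMM CPM in WT HSPCs and at 858 to 1086 (median 966) in MLL-AF9 cells. WT HSPC 3 and 4 exceeded WT HSPC 1 and 2 by more than 2 times here, and all 4 lay above the MLL-AF9 libraries (log2 fold change -1.79, SE 0.34, edgeR adjusted p = 0.000827). Rps3, which lines the mRNA entry channel, was at 891, 938, 2229 and 2349 TMM CPM and at 344 to 499 (median 453), again without overlap (log2 fold change -1.87, SE 0.32, edgeR adjusted p = 0.000406).

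Of the genes whose loss impairs red cell production, those of the 40S subunit named here fell. Of the 60S genes of this kind described further on, Rpl11 also fell, while Rpl5 did not pass the test. Rps19, the gene most often mutated in Diamond-Blackfan anemia, stood at 518, 573, 1398 and 1499 TMM CPM in WT HSPCs and 260.1 to 391 (median 324) in MLL-AF9 cells. No MLL-AF9 library reached the lowest WT HSPC library (log2 fold change -1.61, SE 0.33, edgeR adjusted p = 0.00126). Rps14, the 5q myelodysplasia gene, was at 623, 649, 1822 and 1946 TMM CPM and at 293 to 436 (median 402), with the same order of libraries (log2 fold change -1.72, SE 0.35, edgeR adjusted p = 0.00125). Of other Diamond-Blackfan genes of the 40S subunit, Rps10, Rps26, Rps7 and Rps24 had log2 fold changes of -1.66 (SE 0.34), -1.55 (SE 0.28), -0.86 (SE 0.23) and -0.79 (SE 0.22), and all 4 passed the test. Rps24 stood out by its HSPC values, which were not raised in the high-share libraries: 777, 886, 658 and 755 TMM CPM in WT HSPC 1 to 4, against 347 to 495 (median 469.6) in MLL-AF9 cells. The groups still did not overlap, at an edgeR adjusted p of 0.00796. Rps27 and Rps29, small zinc finger proteins of the 40S subunit, fell by 1.89 (SE 0.35) and 1.71 (SE 0.26) on the log2 scale. Rps27 was at 396, 438, 804 and 915 TMM CPM in WT HSPCs and at 103 to 262 (median 159.6) in MLL-AF9 cells, and Rps29 was at 643, 689.5, 1102 and 1224 and 214 to 316 (median 288).

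In the 60S subunit, the strongest drops were in the stalk that recruits translation factors and in Rpl8. The stalk's base protein gene Rplp0 (chr5:115559467-115563727 on the plus strand, GRCm38) stood at 1741, 1775, 4933 and 4905 TMM CPM in WT HSPCs and at 611 to 917 (median 789.7) in MLL-AF9 cells. The lowest WT HSPC library was above the highest MLL-AF9 library, and the fitted level was 4.33-fold higher in WT HSPCs (log2 fold change -2.11, SE 0.34, edgeR adjusted p = 0.000299). Its partners Rplp1 and Rplp2 had log2 fold changes of -2.08 (SE 0.36) and -2.004 (SE 0.37). Rpl8, next to the peptidyl transferase center, stood at 1162, 1191, 3264 and 3301 and 383 to 676 (median 513) TMM CPM in the 2 groups without overlap (log2 fold change -2.08, SE 0.35, edgeR adjusted p = 0.00038). Rplp0 and Rpl8 were among the 4 lowest log2 fold changes of the set.

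Rpl3 (-1.56, SE 0.32), also at the peptidyl transferase center, Rpl10 (-1.62, SE 0.30), which is mutated in some T cell leukemias, and Rpl11 (-1.495, SE 0.30), which with Rpl5 and 5S ribosomal RNA binds the p53 regulator Mdm2, fell close to the median of the set. Rpl3 stood at 1047, 1084, 2138 and 2214 TMM CPM in WT HSPCs and at 359.6 to 817 (median 541) in MLL-AF9 cells, a wide range without overlap. Rpl39, a short protein of the exit tunnel, had a smaller change (log2 fold change -0.90, SE 0.26, edgeR adjusted p = 0.00874), at 254, 295, 302 and 379.5 TMM CPM in WT HSPCs and 95.6 to 209.7 (median 173) in MLL-AF9 cells. Rpl22, which is lost in some T cell leukemias, was at 234, 285, 188 and 251 TMM CPM in WT HSPCs and 108 to 199 (median 151) in MLL-AF9 cells, and MLL-AF9 5 overlapped WT HSPC 3 (log2 fold change -0.65, SE 0.23, edgeR adjusted p = 0.0289). The call on Rpl22 was lost without WT HSPC 2 or 4 (-0.59 and -0.64) and without MLL-AF9 1, 4 or 6 (-0.55, -0.62 and -0.62).

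**Figure D2:**
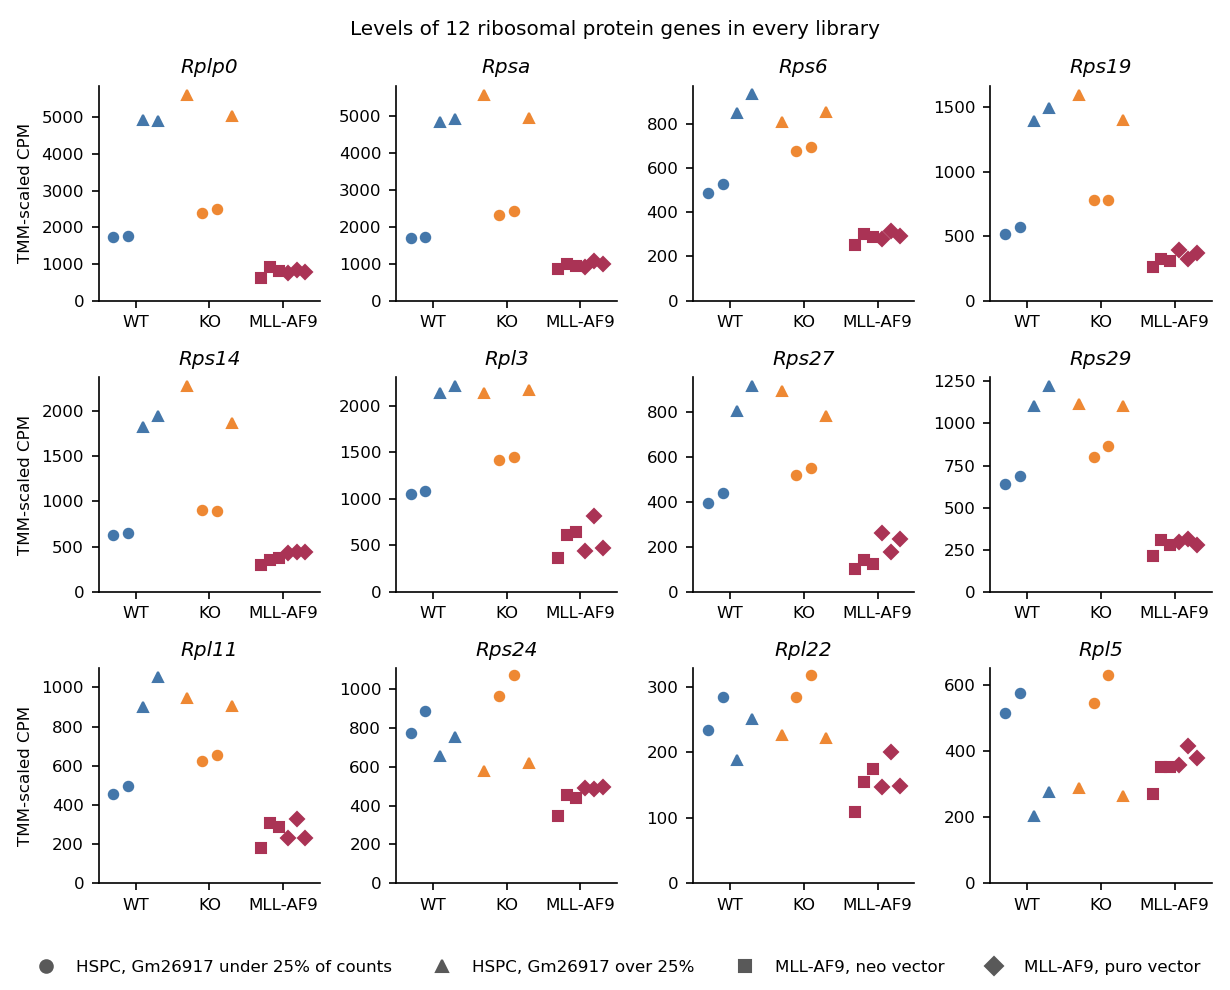
TMM-scaled CPM of 12 RP genes in each of the 14 libraries, 1 panel per gene, with WT HSPCs, Mir139KO HSPCs and MLL-AF9 cells side by side. Rplp0 spans 1741 to 4933 in WT HSPCs and 611 to 917 in MLL-AF9 cells, whereas the MLL-AF9 libraries of Rpl5 (269.5 to 415) lie inside the range of the WT HSPC libraries (203 to 574).

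Rpl5, Rpl4, Rpl17 and Rpl23 had the 4 smallest differences. Rpl5 (chr5:107900502-107909005 on the plus strand), the partner of Rpl11 in the 5S particle, stood at 513, 574, 203 and 275 TMM CPM in WT HSPC 1 to 4 and at 269.5 to 415 (median 354) in MLL-AF9 cells. All MLL-AF9 libraries lay below the low-share WT HSPC libraries, and 5 of 6 lay above the high-share ones (log2 fold change -0.17, SE 0.31, edgeR adjusted p = 0.651), and without WT HSPC 1 or 2 the log2 fold change was -0.01 and 0.04. Rpl4, which with Rpl17 forms the narrow part of the exit tunnel, stood at 1464, 1581, 769 and 930.5 TMM CPM in WT HSPCs and 687 to 1061 (median 951) in MLL-AF9 cells (log2 fold change -0.39, SE 0.27, edgeR adjusted p = 0.219). Rpl17 was at 706, 754, 507 and 666 and 408 to 626 (median 494) (log2 fold change -0.39, SE 0.25, edgeR adjusted p = 0.186). Rpl23, on the subunit interface, was at 512, 603, 382 and 449 and 287 to 497 (median 400.5) (log2 fold change -0.28, SE 0.25, edgeR adjusted p = 0.341). In all 4 genes the groups overlapped, and the WT HSPC values were higher in the low-share than in the high-share libraries, the reverse of Rplp0.

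**Figure D3:**
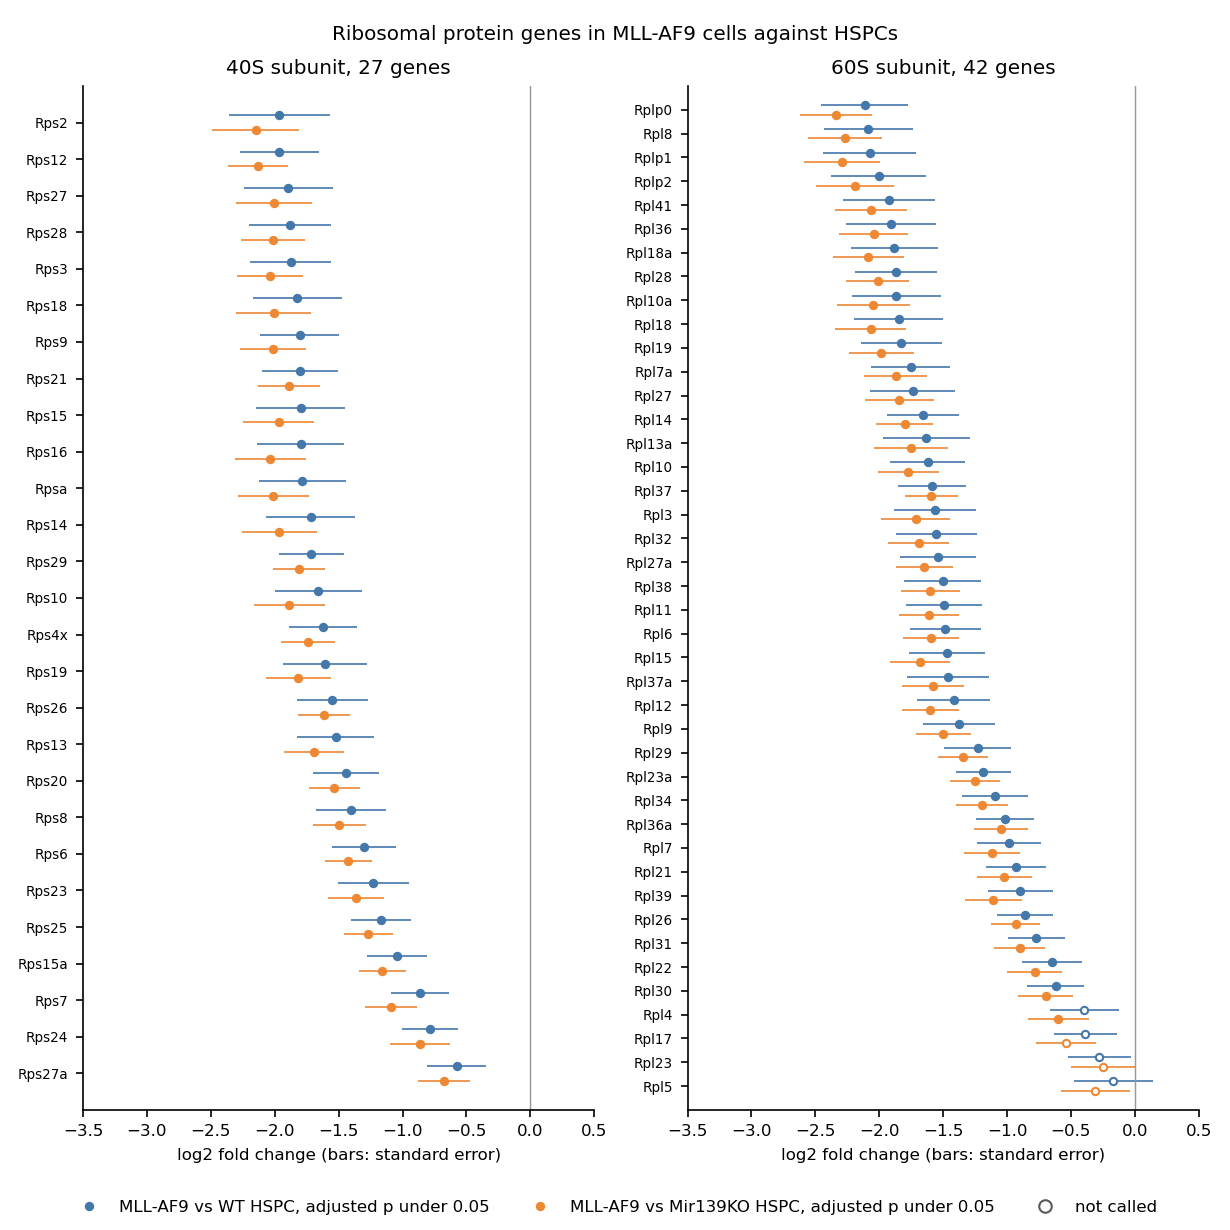
Log2 fold change ± SE of 69 of the 72 RP genes in MLL-AF9 cells against WT HSPCs and against Mir139KO HSPCs, with 40S and 60S members in separate panels and open symbols for members that did not pass the test. Rplp0 lies at -2.11 against WT HSPCs and Rpl5, at the other end, at -0.17.

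The size of the median drop depended on the scaling and on the HSPC libraries used, while its sign was negative in all of these settings. With library totals in place of TMM factors, which moved the median of all genes from 0.14 to 0.69, 53 members were called lower (18.3% of all genes) at a median of -0.84, and Rpl5, Rpl4, Rpl17 and Rpl23 changed sign while Rpl22 (-0.10), Rpl39 (-0.27), Rps7 (-0.28) and Rps24 (-0.23) no longer passed. Against the 2 low-share WT HSPC libraries alone, 69 members fell (20.8% of all genes) at a median of -0.96, and against the 2 high-share libraries alone 68 fell (29.8%) at a median of -2.08.

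Markers of other blood cells moved with this comparison. The 8 erythroid markers summed to 1394 to 2011 TMM CPM in WT HSPCs and to 2.35 to 15.96 in MLL-AF9 cells, where Hbb-bs and Car1 were at 0. The 8 B cell markers summed to 1611 to 2534 and 9.94 to 30.4, with Ms4a1 at 0 in both groups, the 6 T cell markers to 38.3 to 72.6 and 0.506 to 2.07, and the 4 megakaryocyte markers to 90.1 to 423 and 3.79 to 17.5. The 8 neutrophil markers summed to 4473 to 15091 and 2418 to 4203 TMM CPM, and the 6 monocyte markers to 391 to 611 and 64.4 to 614, with Irf8 at 0 throughout. Of the 10 HSPC markers, 10 had over 3 counts in every WT HSPC library and 8 in every MLL-AF9 library (sums of 1259 to 1405 and 1375 to 2342 TMM CPM). Although their sum was not lower, 6 of the 10 HSPC markers were called lower and 2 higher, at a median log2 fold change of -1.49. The 4 MLL-AF9 program genes (Hoxa7, Hoxa9, Hoxa10 and Meis1) summed to 22.8 to 42.5 TMM CPM in WT HSPCs and to 349 to 1206 in MLL-AF9 cells. The share of mitochondrially encoded counts was 0.1098 to 0.772% in WT HSPCs and 1.05 to 2.34% in MLL-AF9 cells. The part of these differences in the RP values was not tested.

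To ask which members changed relative to the rest of the ribosome, each library was scaled by its summed RP counts. On this scale a value of 0 means that a gene moved with the set. Against WT HSPCs, 3 members were higher (Rps27a, Rpl17 and Rpl23) and 1 was lower, where 57.1% of all genes were called higher and 7.59% lower. Rps27a, made as a fusion of ubiquitin and a 40S protein, stood at 0.82 (SE 0.29, edgeR adjusted p = 0.0268), Rpl23 at 1.005 (adjusted p = 0.0339) and Rpl17 at 0.92 (adjusted p = 0.0453). Rpl5, Rpl4, Rplp0 and Rpl8 had relative log2 values of 1.01 (SE 0.48), 0.83 (SE 0.42), -0.50 (SE 0.24) and -0.48 (SE 0.25) and did not pass the test. These calls depended on single libraries. Without WT HSPC 3 or 4 none of the 3 was called higher, without MLL-AF9 4 or 6 Rps27a was the only one of them called, and without WT HSPC 2 the count over the set was 7. With the low-share WT HSPC libraries alone 0 members were called (2 at an unadjusted p under 0.05), and with the high-share libraries alone 29 were called, 19 higher and 10 lower. Shares over all genes are not given for these 2 settings. DESeq2 and limma were not run on this scale.

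Against Mir139KO HSPCs, which share the MLL-AF9 libraries with the comparison above, 69 members fell and 0 rose, where 31.9% of 16953 genes were called lower and 37.3% higher. The median log2 fold change was -1.69 beside 0.16 over all genes, and in 68 members the groups did not overlap, as in 28.2% of all genes. Rplp0 stood at 5605, 2384, 2493 and 5024 TMM CPM in Mir139KO HSPC 1 to 4, with replicates 1 and 4, the high-share libraries, the highest (log2 fold change -2.34, SE 0.28, edgeR adjusted p = 2.2e-05). Rps6 stood at 810.1, 679, 694 and 856 and Rps19 at 1599.8, 781, 782 and 1403 TMM CPM, all above the MLL-AF9 libraries (log2 fold changes -1.42 (SE 0.18) and -1.81 (SE 0.26)). Against Mir139KO HSPCs the erythroid markers summed to 1628 to 2187 TMM CPM, the B cell markers to 1932 to 6079 and the neutrophil markers to 11319 to 22725 in the HSPC group, with the MLL-AF9 sums given above, and their part was again not tested. Rplp0, Rplp1 (-2.29) and Rpl8 (-2.27) were among the 4 lowest log2 fold changes.

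Rpl5, Rpl17 and Rpl23 again did not pass the test. Rpl5 stood at 286, 544, 628 and 263 TMM CPM in Mir139KO HSPCs (log2 fold change -0.31, SE 0.27, edgeR adjusted p = 0.328), with all MLL-AF9 libraries below replicates 2 and 3 and 5 of 6 above replicates 1 and 4. Rpl17 stood at 565, 850.4, 924 and 573 (log2 fold change -0.54, SE 0.24, edgeR adjusted p = 0.0592) and Rpl23 at 329, 563, 644 and 367 (log2 fold change -0.25, SE 0.25, edgeR adjusted p = 0.388). Rpl4, at 989, 1639, 1808 and 1013 TMM CPM, passed (log2 fold change -0.60, SE 0.24, edgeR adjusted p = 0.0417) although it overlapped. That call was lost without any of Mir139KO HSPC 2 and 3 (-0.50 and -0.44) and MLL-AF9 1, 2, 3, 4 and 6 (-0.61 to -0.51), and Rpl17 was called without Mir139KO HSPC 1 or 4 (-0.68 each).

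Relative to the RP total, 9 members were higher in MLL-AF9 cells than in Mir139KO HSPCs (Rpl4, Rpl5, Rpl17, Rpl22, Rpl23, Rpl26, Rpl30, Rpl31 and Rps27a) and 5 were lower (Rplp0, Rplp1 and Rpl8 among them), where 67.4% of all genes were called higher and 7.46% lower. The highest were Rpl23 (1.29, SE 0.35, edgeR adjusted p = 0.00529) and Rpl5 (1.21, SE 0.38, adjusted p = 0.0128), and Rplp0 was among the lowest (-0.59, SE 0.22, adjusted p = 0.028). The count of 14 fell to 5 without Mir139KO HSPC 1, to 3 (Rpl5, Rpl23 and Rps27a) without Mir139KO HSPC 4 and to 8 or 9 without MLL-AF9 3, 4 or 6. It was 3 with the low-share and 30 with the high-share Mir139KO HSPC libraries alone, for which shares over all genes are not given.

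The 2 sets of HSPC libraries separated the members by base composition. In the 4 high-share libraries 58 members had a higher mean than in the 4 low-share libraries and 14 a lower one, without overlap in 55 and 6 of them, and the median ratio was 1.73. These are levels on the TMM scale, whose factors differ between the sets. With library totals 43 members were higher and 29 lower, without overlap in 29 and 17, and the median ratio was 1.08. Shares over all genes are not given for these counts, so they do not say whether RP genes separate the sets more than other genes. Mitochondrially encoded counts took 0.328 to 0.772% of the low-share and 0.0951 to 0.125% of the high-share libraries. Coding GC content ran from 44.9 to 61.6% over the members (median 52.8%). Across the 72 members, which share the same 8 libraries, the ratio of high-share to low-share levels rose with coding GC (Spearman's rho 0.77). The 18 members of lowest coding GC (44.9 to 50%) had a median ratio of 0.956 and the 18 of highest coding GC (56.05 to 61.6%) a median ratio of 2.40 (0.596 and 1.501 with library totals). Rpl5 (46.02% GC) and Rplp0 (56.05% GC) show the contrast. Rpl5 was at 513 and 574 TMM CPM in the low-share and 203 and 275 in the high-share WT HSPC libraries, and Rplp0 was at 1741 and 1775 against 4933 and 4905.

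The order of the members in the comparison with MLL-AF9 cells followed the same property in part. The log2 fold change against WT HSPCs had a Spearman's rho with coding GC of -0.72 over the 72 members, which share all 10 libraries. It was -0.33 with the low-share and -0.75 with the high-share WT HSPC libraries alone. The 18 members of lowest coding GC had a median log2 fold change of -0.91 with all WT HSPCs, -0.81 with the low-share and -0.99 with the high-share libraries. The 18 of highest coding GC had -1.86, -1.05 and -2.498. With a per-library offset for coding GC content, the order turned (rho 0.66, medians of -1.87 in the lowest and -0.97 in the highest GC class), 71 members were called lower (28.0% of all genes) with Rpl29 the exception, and the median was -1.19. With that offset and the low-share libraries alone, 51 were called lower (17.2% of all genes) at a median of -0.79, and Rps10 (-0.40), Rps14 (-0.40), Rps19 (-0.41), Rpsa (-0.50) and Rpl11 (-0.66) were among those that did not pass. Each of these settings left 0 members called higher. The part of base composition in the values of single members was not tested beyond them.

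**Figure D4:**
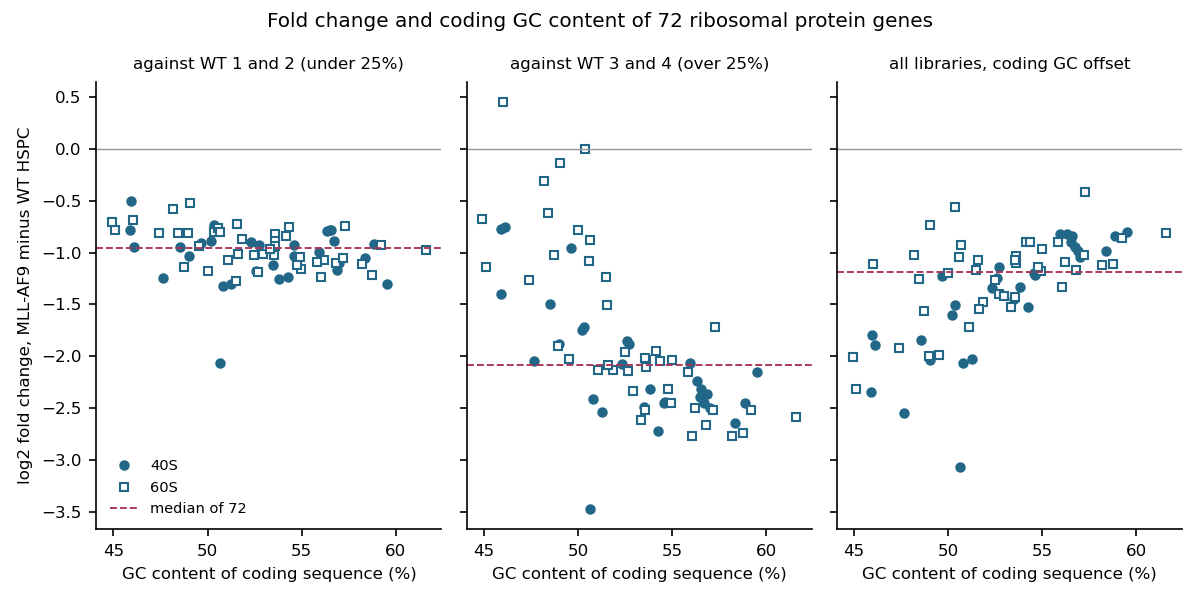
Log2 fold change of the 72 RP genes in MLL-AF9 cells against WT HSPCs plotted on coding GC content in percent, with the low-share WT HSPC libraries (1 and 2), with the high-share libraries (3 and 4) and with all WT HSPC libraries after an offset for coding GC, and the median of the members as a dashed line. The medians are -0.96, -2.08 and -1.19, and the slope against GC content is shallow, steep and turned.

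Members with and without a run of at least 7 pyrimidines within 15 bases either side of the annotated start had close medians. The run was counted anywhere in that window, so this split does not tell TOP mRNAs from others. The 26 members with a run of at least 7 pyrimidines, such as Rps10, Rps6, Rps27 and Rps24 above, had a median log2 fold change against WT HSPCs of -1.59, and 25 of them were called lower. The 26 without such a run, such as Rplp0, Rpl5 and Rpl22, had a median of -1.60, and 24 were called lower. The 37 members with CGGAAG and the 15 without it had medians of -1.54 and -1.63.

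Mir139KO and WT HSPCs were set against each other to see what loss of the microRNA does in progenitors without MLL-AF9. No member passed the test: 0 of 72 were called by edgeR, DESeq2 or limma, as were 0.0% of the 15056 genes by edgeR, and 0 members had an unadjusted p under 0.05, against 0.571% of all genes. The median log2 fold change was 0.11 (68 positive) beside -0.03 over all genes, and in 0 members did the groups stand apart (0.199% of all genes stood apart with Mir139KO higher). The highest values were those of Rps14 (0.22, SE 0.49), Rps16 (0.21, SE 0.46), Rps10 (0.20, SE 0.46) and Rps7 (0.20, SE 0.21), and Rpl23 (-0.05, SE 0.29) and Rpl37 (-0.01, SE 0.29) were among the 4 lowest. Rps14 stood at 2272, 901, 898 and 1868 TMM CPM in Mir139KO HSPC 1 to 4 and at 623, 649, 1822 and 1946 in WT HSPC 1 to 4, so that its spread within a genotype exceeded the difference. The median of the set was -0.06 without WT HSPC 1, -0.04 without WT HSPC 2 and 0.32 without WT HSPC 4.

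Within the 4 low-share HSPC libraries 71 of the 72 log2 fold changes were positive, although none passed the test. The share of all genes with a positive value is not given here. In this set Gm26917 took 17.0 and 17.8% of counts in WT HSPC 1 and 2 and 21.3 and 21.9% in Mir139KO HSPC 2 and 3. Mitochondrially encoded counts took 0.438 and 0.772% against 0.378 and 0.328%. The part of these differences in the RP values was not tested. Rps6 stood at 679 and 694 TMM CPM in Mir139KO HSPC 2 and 3 and at 487 and 528 in WT HSPC 1 and 2, and Rplp0 at 2384 and 2493 against 1741 and 1775. The median log2 fold change over the members was 0.42, and 62 members had an unadjusted p under 0.05, where 9.52% of all genes did in that direction, but 0 were called (smallest edgeR adjusted p = 0.162). Within the 4 high-share libraries the median was -0.07 and 0 members reached an unadjusted p of 0.05. A test of the difference between the sets gave a median of 0.44 and 53 members with an unadjusted p under 0.05, against 16.3% of all genes, and edgeR called 0. Relative to the RP total, edgeR called 0 members and left 0 below an unadjusted p of 0.05, against 0.0% and 0.844% of all genes. Among the extremes there were Rpl23 (-0.28), Rpl36a (-0.22) and Rpl5 (-0.20) below and Rps14 (0.11), Rps16 (0.10), Rplp1 (0.09) and Rps10 (0.09) above.

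The MLL-AF9 cultures made with the puro and the neo vector were compared as the only contrast within the leukemia cells. Selection was with puromycin or neomycin, so vector and drug cannot be told apart here. Of 72 members, 0 were called by edgeR or limma, where edgeR called 0.564% of 16503 genes higher and 0.309% lower. DESeq2 called 2 (Rpl17 and Rps27, both higher in puro). Its share over all genes is not given, so these calls cannot be set beside the edgeR shares. An unadjusted edgeR p under 0.05 was reached by 9 members, all higher in puro, and by 13.7% of all genes. The median log2 fold change was 0.21 (62 positive) beside -0.02 over all genes, and 31 members stood apart with puro higher, as did 11.8% of all genes. Rps27 had the highest log2 fold change (log2 fold change 0.89, SE 0.24, edgeR adjusted p = 0.158), at 103, 141 and 122 TMM CPM in the neo and 262, 178 and 237 in the puro cultures. All 3 puro cultures lay above the 3 neo cultures, and without MLL-AF9 5 Rps27 was called (1.06). Rplp2 (0.64, SE 0.21) and Rps18 (0.58, SE 0.21) were also among the 4 highest, and Rpl13a (-0.63, SE 0.34), Rps2 (-0.30, SE 0.35) and Rpl7 (-0.21, SE 0.26) were among the 4 lowest. Rps2 stood at 544, 929.7 and 811 TMM CPM in neo and 443, 970.0 and 469.5 in puro cultures, where MLL-AF9 5 was the highest of all and MLL-AF9 4 and 6 were the lowest. The count of 9 was 2 without MLL-AF9 4 or 6 and 5 without MLL-AF9 3, and with replicates 4 and 6 summed into 1 sample it was 2.

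Relative to the RP total, 0 members were called between the vectors by edgeR (0.273% of all genes higher and 0.194% lower), and 4 had an unadjusted p under 0.05, against 14.7% of all genes. Rps27 (0.70, SE 0.24), Rplp2 (0.46) and Rps18 (0.40) were among the 4 highest and Rpl13a (-0.82, SE 0.30), Rps2 (-0.48) and Rpl7 (-0.38) among the 4 lowest. Without MLL-AF9 5, Rps27 (0.88), Rpl13a (-1.17) and Rps2 (-0.87) were called. The puro cultures also differed from the neo cultures in their summed MLL-AF9 program genes (665 to 1206 against 349 to 518 TMM CPM) and monocyte markers (182 to 614 against 64.4 to 140), and in neutrophil markers in the other direction (2418 to 2592 against 2757 to 4203, with 1 of 8 called lower). The part of this in the RP values was not tested.

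Other genes of the ribosome pathway were compared in the same fits of MLL-AF9 cells against WT HSPCs. The genes named in this and the next paragraph were chosen after their values were seen. RPs outside the naming rule behaved in a mixed way, with 2 of 3 tested called lower, where 29.4% of all genes were. Rack1, the scaffold on the 40S head, fell (log2 fold change -2.12, SE 0.36, edgeR adjusted p = 0.000395), as did Fau, a ubiquitin-like fusion of a 40S protein (log2 fold change -1.44, SE 0.34, edgeR adjusted p = 0.00307), whereas Rps3a1 did not pass (log2 fold change -0.50, SE 0.28, edgeR adjusted p = 0.133) but passed without WT HSPC 3 (-0.70) and against the low-share libraries alone (-0.94). Of 5 tested RP paralogs, 1 was lower (Rpl9-ps6) and 0 were higher, where 29.4% of all genes were called lower and 32.8% higher. Among 16 other genes whose mRNAs carry a TOP tract, most of them translation factors, 9 fell and 0 rose at a median of -0.76, where 29.4% of all genes fell. With library totals 6 fell (18.3% of all genes) at a median of -0.22. The elongation factors Eef2 (log2 fold change -2.14, SE 0.35, edgeR adjusted p = 0.000321) and Eef1g (log2 fold change -2.36, SE 0.39, edgeR adjusted p = 0.000358) fell most among those named, and Eef1a1 had a smaller change (log2 fold change -0.80, SE 0.28, edgeR adjusted p = 0.0236) whose call was lost without WT HSPC 1 (-0.71), MLL-AF9 1 (-0.70) or MLL-AF9 3 (-0.72). Among mitochondrial RPs, which belong to a separate ribosome, 46 of 72 tested fell and 2 rose at a median of -1.03, where 29.4% of all genes fell. With library totals 24 fell (18.3% of all genes) at a median of -0.39, and against the low-share libraries alone 25 fell (20.8%) at a median of -0.79.

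Genes that make ribosomal RNA and assemble it were less uniform. Among all genes, 29.4% fell and 32.8% rose with TMM factors, 18.3% fell with library totals and 28.0% fell with the coding GC offset. Shares of all genes that rose are not given for the last 2 settings. Of 15 RNA polymerase I genes, 9 fell and 1 rose at a median of -1.33 (6 and 2 at -0.70 with library totals), with Ubtf, the upstream binding factor, lower (log2 fold change -1.86, SE 0.31, edgeR adjusted p = 0.000402) and Taf1b, a subunit of the selectivity factor, higher (log2 fold change 1.42, SE 0.39, edgeR adjusted p = 0.00704). Of 55 tested genes of ribosomal RNA processing and assembly, 22 fell and 3 rose at a median of -0.42. Against the low-share WT HSPC libraries alone 5 fell and 0 rose, where 20.8% of all genes fell. The median was 0.07 with library totals, where 14 of the 55 fell (18.3% of all genes) and 5 rose. It was -0.73 with the coding GC offset, where 15 of the 55 fell (28.0% of all genes) and 0 rose. Fbl, the methyltransferase fibrillarin, fell (log2 fold change -2.63, SE 0.46, edgeR adjusted p = 0.000486), and Nmd3, the export adaptor of the 60S subunit, rose (log2 fold change 1.92, SE 0.53, edgeR adjusted p = 0.00773), although Nmd3 changed sign with offsets for transcript GC content (-0.15). Of 5 dedicated RP chaperones 2 fell (Aamp and Grwd1) and 0 rose, with Grwd1, which carries Rpl3, at log2 fold change -2.63, SE 0.61, edgeR adjusted p = 0.00286. Of 8 genes that control TOP mRNAs, 4 fell and 1 rose, with lower Myc (log2 fold change -1.18, SE 0.37, edgeR adjusted p = 0.0153) and Mtor (log2 fold change -0.84, SE 0.21, edgeR adjusted p = 0.00457) and higher Rps6kb1, an S6 kinase (log2 fold change 2.10, SE 0.39, edgeR adjusted p = 0.000683). The call on Fau (-0.64) was lost against the low-share libraries alone, that on Myc there and with the coding GC offset (-0.34), and those on Taf1b (0.22), Nmd3 (0.14) and Mtor (-0.27) with that offset. Of the 8 TOP control genes, 3 were called higher and 0 lower with the coding GC offset, and 2 higher and 0 lower with library totals. Of 7 tested snoRNA host genes 3 fell and 0 rose at a median of -0.12, where 29.4% of all genes fell. Their direction depended on the setting, with a median of 0.47 with library totals (1 fell and 2 rose) and of -1.54 with the coding GC offset (5 fell and 0 rose). Of 10 p53 targets, 7 rose and 0 fell at a median of 2.39, where 32.8% of all genes rose. Among the 7 were Cdkn1a (log2 fold change 2.98, SE 0.40, edgeR adjusted p = 8.88e-05) and Mdm2 (log2 fold change 2.497, SE 0.41, edgeR adjusted p = 0.000353). Such targets can respond when free Rpl5 and Rpl11 bind Mdm2, but whether that had a part in these values was not tested.

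**Figure D5:**
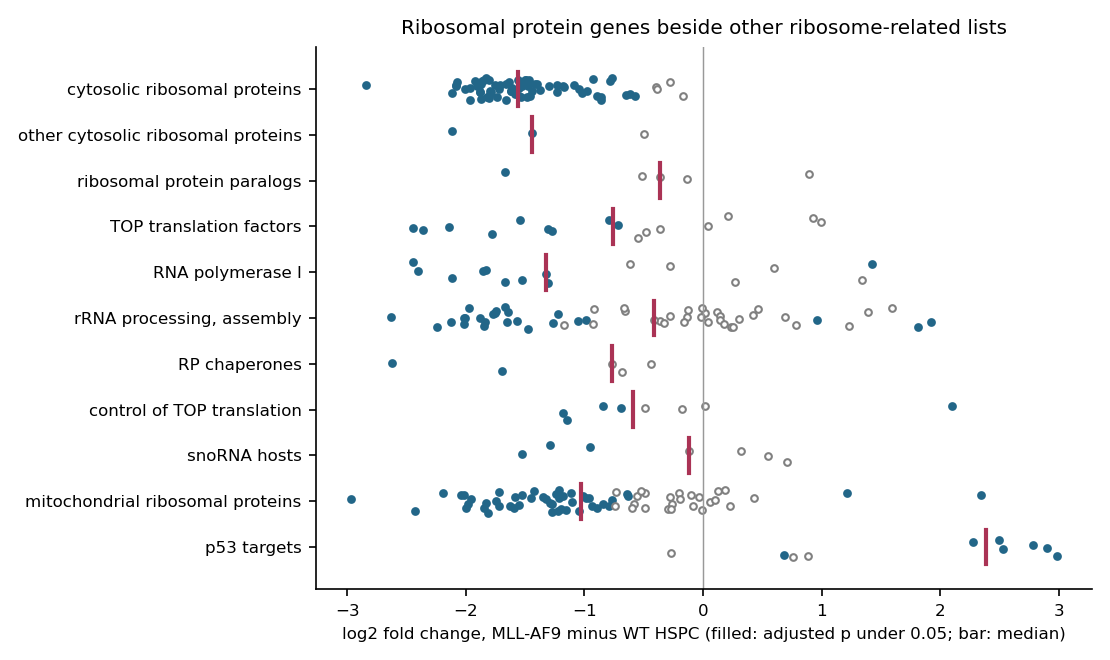
Log2 fold change of single genes in MLL-AF9 cells against WT HSPCs by gene list, with filled points for genes that passed the test and a bar at the median of each list. The RP genes have a median of -1.56, mitochondrial RPs of -1.03, RNA polymerase I genes of -1.33, ribosomal RNA processing genes of -0.42 and p53 targets of 2.39.

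Between Mir139KO and WT HSPCs, edgeR called 0 genes of these lists, with 0 at an unadjusted p under 0.05. Between the vectors edgeR called 0 of them. Of 196 tested, 12 had an unadjusted p under 0.05, against 13.7% of all genes, and DESeq2 and limma counts were not computed for the lists. There, 53 of the 55 ribosomal RNA processing genes had a negative value (median -0.68), unlike the RP genes, of which 62 of 72 had a positive value.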

How the data were processed

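RNA from 14 libraries (4 WT HSPC, 4 Mir139KO HSPC, 6 MLL-AF9) was depleted of ribosomal RNA and sequenced by the authors. The authors aligned the reads to GRCm38 with STAR 2.5.3e and deposited raw counts per gene, made with featureCounts 1.6.0 and GENCODE M15; strand and multi-mapping settings are not given in the sources used here. The deposited counts came in 2 tables that were equal in 735700 of 735700 values, and 10 columns of another series were not used. Gene models, GC content and lengths came from GENCODE M21, which held 52403 of the 52550 genes.

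Each comparison was fitted on all genes with at least 10 counts in as many libraries as the smaller group holds. The fits used edgeR 4.0.16 (TMM factors, robust quasi-likelihood test, default prior count) in R 4.3.3. A prior count of 2 was used only for the log CPM behind the correlations of same-numbered libraries. P-values were adjusted by the Benjamini-Hochberg method over all genes tested, and a gene was called at an adjusted p under 0.05. In a second scaling, the offset was the log of each library's summed RP counts. DESeq2 1.42.0, limma 3.58.1, other scalings and filters, offsets for GC content and length, single left-out libraries and HSPC libraries split at 25% of counts on Gm26917 were alternatives. Offsets for coding GC content (natural spline with 5 degrees of freedom), alone and with the split, and the sum of MLL-AF9 4 and 6 were chosen after seeing the data. The fits were tested on simulated data. The genes named were 20 members with known roles, and the 4 highest and 4 lowest log2 fold changes in each comparison and scaling. The members and lists were chosen with earlier results of these data known. Library depths of 35016668 to 45877994 counts leave counting error small beside the spread between libraries for the members named. Some members are not reported here by name.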

Additional observations from a re-analysis of the deposited data

Results flagged for a closer look

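Of 99 groups tested over 33 measures, 3 had a library far from the others of its group, and chance alone marks about 1 group in 20. All 3 were MLL-AF9 1. Its RP share of counts was 2.38%, with the next library at 3.08%. Its Rps29 level was 214 TMM CPM, with the next at 279.6, and its Rpl36a level was 70.1 TMM CPM, with the next at 101.8. Without this library 65 members were called lower in MLL-AF9 cells than in WT HSPCs, at a median log2 fold change of -1.47.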

How the results depend on the processing

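Of 407 recomputed counts, medians and shares, 367 stayed close to the reported value and 40 moved. Of 2054 recomputed values of single genes, 1789 kept their direction and call, 69 newly passed the threshold, 140 lost it and 56 turned sign. The causes were not tested. The median log2 fold change of MLL-AF9 cells was -0.84 against WT HSPCs and -0.91 against Mir139KO HSPCs with total counts, -1.11 and -1.28 with a GC offset, -0.89 and -0.99 with GC and length offsets, -1.19 and -1.33 with a coding GC offset, -0.96 and -1.39 with low-share HSPC libraries, -2.08 and -2.03 with high-share ones, and -0.79 and -1.15 with low-share ones and a coding GC offset. The replicate numbers did not pair the samples (correlations of same-numbered deviations from -0.71 to 0.80). With a replicate block, 59 and 68 members were called lower (medians -1.53 and -1.73), with block and GC offset the medians were -1.18 and -1.36, and relative to the RP total 0 and 2 members were called. Those RP-total counts were 0 and 3 with low-share and 29 and 30 with high-share libraries. DESeq2 called 2 members between the vectors, for which no share over all genes is given. The median ratio of high-share to low-share HSPC libraries was 1.08 with library totals, chosen after seeing the data. Without Gm26917 the RP share was 7.57% in WT and 8.16% in Mir139KO HSPCs, and 7.60% and 8.19% without mitochondrially encoded genes as well. Leaving out 1 library at a time gave 65 to 68 and 68 to 70 members called lower, medians of -1.75 to -1.37 and -1.80 to -1.59, RP-total counts of 1 to 7 and 3 to 16, and, for puro against neo, 0 to 1 called higher and 0 to 3 relative to the RP total. The median ranged from -0.06 to 0.32 for Mir139KO against WT HSPCs and from 0.06 to 0.30 for puro against neo, and the shares from 5.19 to 5.71% (WT), 5.84 to 5.87% (Mir139KO) and 3.03 to 3.24% (MLL-AF9).

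Sign changes against WT HSPCs were Rpl5 (0.28), Rpl4 (0.087), Rpl17 (0.17) and Rpl23 (0.26) with total counts, Rpl5 with high-share libraries (0.45), and Nmd3 with a GC offset (-0.15), GC and length (-0.43) and block with GC (-0.36). Rplp0 (0.056), Rpl8 (0.23) and Rps27a (-0.33) turned relative to the RP total with coding GC. Against Mir139KO HSPCs they were Rpl4 (0.023), Rpl17 (0.11), Rpl5 (0.29) and Rpl23 (0.38) with total counts, Rpl5 (0.29) and Rpl23 (0.16) with high-share libraries, and Rplp0 (0.018) and Rplp1 (0.23) relative to the RP total with coding GC. Between the HSPC genotypes, where 0 members were called, Rpl23 (0.12) and Rpl37 (0.27) turned within low-share libraries. Rpl37 also turned with RLE factors (0.00032), DESeq2 (0.00033), all 14 samples (0.00030), limma (0.032), the replicate block (0.033), block with GC (0.035) and the share covariate (0.033). Relative to the RP total, Rpl5 turned with coding GC (0.017). With 1 library left out, log2 values ranged from -0.24 to 0.098 for Rpl23, -0.19 to 0.18 for Rpl37, -0.036 to 0.48 for Rps10, -0.029 to 0.49 for Rps16 and -0.054 to 0.505 for Rps14, and relative to the RP total from -0.43 to 0.0086 for Rpl36a, -0.53 to 0.17 for Rpl5, -0.028 to 0.20 for Rplp1, -0.0055 to 0.17 for Rps10 and -0.020 to 0.21 for Rps14. Rpl5 against WT HSPCs ranged from -0.40 to 0.042, and Rpl7 between the vectors from -0.41 to 0.0055.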
